A study of Mus musculus with 37 samples.

Results

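The genes of the first red blood cells were followed in the tailbud of 37 mouse embryos. The 9 genes were taken from the count table by their symbols, out of 35542 genes in all. They are the embryonic globin genes Hba-x, Hbb-bh1 and Hbb-y, the adult α-globin genes Hba-a1 and Hba-a2, the transcription factor genes Gata1, Klf1 and Nfe2, and the haem enzyme gene Alas2.

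Primitive erythroid cells arise in the blood islands of the yolk sac, enter the circulation once the heart beats and go on maturing in the blood. In the mouse they use embryonic globins, and as they mature the β-like genes shift from Hbb-bh1 (βh1) towards Hbb-y (εy) and the α-like genes from Hba-x (ζ) towards the adult α genes. GATA1, KLF1 and NF-E2 (of which Nfe2 encodes the haematopoietic subunit) drive the erythroid programme, and ALAS2 makes the first committed step of haem synthesis in red cells.

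Each library came from the tailbud of a single C57BL/6 and Castaneus F1 embryo at E8 to E8.5, cut 1.5 somites below the last somite. There were 21 Smchd1 wt embryos, which are Smchd1 fl/+ and came from Smchd1 fl/fl mothers without the transgene (MMTV-Cre +/+), and 16 Smchd1 matΔ embryos, which are Smchd1 del/+ and came from Smchd1 del/fl mothers with MMTV-Cre T/+. MMTV-Cre is used in this model to remove the gene for SMCHD1, a chromatin silencing protein, from the oocyte. All fathers were Cast Smchd1 +/+, so every embryo had a functional paternal allele, while Smchd1 matΔ embryos had neither SMCHD1 from the oocyte nor an intact maternal allele. At 6, 7, 8, 9, 10 and 11 somites there were 4, 4, 3, 3, 4 and 3 Smchd1 wt embryos and 4, 3, 2, 2, 3 and 2 Smchd1 matΔ embryos. All 6-somite embryos were female, and of all 37 embryos 24 were female and 13 male.

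Sequencing depth, in units of 1e6 counts per library, was 0.916 to 80.6, with a median of 11.96 in Smchd1 wt and 14.2 in Smchd1 matΔ. Levels are given as CPM, counts per 1e6 counts of the library after TMM normalisation, a scaling between libraries. Smchd1 itself was at 105 to 204 CPM in Smchd1 wt and 64.0 to 112 CPM in Smchd1 matΔ embryos. All 11 tailbud markers listed, among them Cyp26a1 and Nkx1-2, were over 1 CPM in each of the 37 embryos. A pair of embryos stood apart in their globins, namely Smchd1 matΔ replicate 4 and Smchd1 wt replicate 2 at 6 somites, and values without them are given where they matter. In whole tissue, fewer red cells and less RNA per red cell cannot be told apart.

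The α-like genes lie together on chromosome 11 (GRCm38), with Hba-x at chr11:32276400-32278116, Hba-a1 at chr11:32283511-32284465 and Hba-a2 at chr11:32296489-32297298. The β-like genes lie on the minus strand of chromosome 7, with Hbb-y at chr7:103851749-103853216, Hbb-bh1 at chr7:103841637-103843164 and the adult β genes Hbb-bs and Hbb-bt at chr7:103826534-103828096 and chr7:103812524-103813996. Klf1 lies at chr8:84901928-84905291, Nfe2 at chr15:103248212-103258403, Gata1 at chrX:7959260-7978071 and Alas2 at chrX:150547375-150570638. These are whole genes, exons and introns included.

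The promoters of embryonic and adult globin genes are shown. Of the adult genes printed, Hbb-bs moved apart from the embryonic globins between embryos, as described below. Hba-a1 moved with them, with Pearson r over the 37 embryos of 0.83 for Hba-x, 0.85 for Hbb-bh1 and 0.82 for Hbb-y. RefSeq promoter sequences on GRCm38.p6, from 250 bases before to 50 bases after the annotated start, were matched for 7 of the 9 genes (none for Hbb-bh1 and Nfe2). They are printed 5′ to 3′ on the strand of the gene, chr11:32276350-32276649 (plus strand) for Hba-x, chr11:32283422-32283721 (plus) for Hba-a1, chr7:103853158-103853457 (minus) for Hbb-y and chr7:103827879-103828178 (minus) for Hbb-bs.
Hba-x: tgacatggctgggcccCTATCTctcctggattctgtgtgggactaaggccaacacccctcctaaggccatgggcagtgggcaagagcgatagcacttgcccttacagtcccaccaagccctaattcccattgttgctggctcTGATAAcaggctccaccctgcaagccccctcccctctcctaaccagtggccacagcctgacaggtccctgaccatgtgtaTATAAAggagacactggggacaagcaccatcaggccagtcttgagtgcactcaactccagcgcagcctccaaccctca
Hba-a1: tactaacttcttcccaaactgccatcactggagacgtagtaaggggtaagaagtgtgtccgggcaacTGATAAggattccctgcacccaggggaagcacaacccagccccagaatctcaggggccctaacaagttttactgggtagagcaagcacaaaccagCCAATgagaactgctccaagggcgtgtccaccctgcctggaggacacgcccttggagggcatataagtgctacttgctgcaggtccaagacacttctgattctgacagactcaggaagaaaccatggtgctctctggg
Hbb-y: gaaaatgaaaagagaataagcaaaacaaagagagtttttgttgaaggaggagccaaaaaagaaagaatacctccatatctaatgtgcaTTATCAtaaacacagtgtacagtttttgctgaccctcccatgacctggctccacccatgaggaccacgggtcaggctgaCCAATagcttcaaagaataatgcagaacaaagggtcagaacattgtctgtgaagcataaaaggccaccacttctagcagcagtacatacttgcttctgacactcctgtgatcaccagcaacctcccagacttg
Hbb-bs: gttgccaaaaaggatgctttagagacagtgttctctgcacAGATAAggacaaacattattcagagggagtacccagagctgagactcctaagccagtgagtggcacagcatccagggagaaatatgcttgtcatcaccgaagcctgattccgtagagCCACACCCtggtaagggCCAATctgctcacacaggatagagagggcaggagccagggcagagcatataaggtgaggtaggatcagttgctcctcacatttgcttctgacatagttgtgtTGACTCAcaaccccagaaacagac
Capitals mark matches, on either strand, to the motifs searched. The motif for GATA factors was AGATAA or a variant of it, with the last base changed in AGATAG, the first base changed in TGATAA, and with the first and the last base changed in TGATAG. That for KLF1, the CACCC box, was CCACACCC. The letters TGAGTCA stood for NF-E2, the letters TATAAA for the TATA box, and CCAAT for the box of that name. A GATA match stood in 7 of the 9 windows read (the 7 members and the 2 adult β genes), the 4 printed among them, and in none of those of Gata1 and Hbb-bt, against 29.8% of the 32851 mouse promoters of the same length. Hba-x held 2 GATA matches and a TATAAA match. Hba-a1 and Hbb-y each held 1 GATA and 1 CCAAT match, the latter being present in 37.4% of promoters. Hbb-bs alone among the 9 held CCACACCC (3.56% of promoters) and TGAGTCA (5.20%). The other adult β gene, Hbb-bt, held neither of these and no GATA match, but 1 TATAAA and 3 CCAAT matches. Of the members not printed, Klf1 held 1 GATA and 1 CCAAT match, Alas2 held 1 GATA and 1 TATAAA match (13.6% of promoters), and Gata1 held none of the 5. The Gata1 window (chrX:7967861-7968160, minus) lay inside the gene span given above, so it is that of an internal start. The starts used for Hba-x, Hba-a1 and Hbb-bs also differed from the ends of the spans given above. The windows of Hba-a1 and Hba-a2 were offset by 3 bases and identical over the 297 bases they shared. A match is a description of letters, and a missing match says only that these letters are not in this window. The letters are those of the reference genome, and the Cast alleles that each F1 embryo also carried were not read.

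Embryonic globin RNA made up most of the erythroid signal, and its amount differed widely between embryos (highest over lowest 544 for Hbb-bh1 and 1386 for Hbb-y). Per length, as RPKM (CPM per kilobase of exon), the medians over 37 embryos were 372 for Hbb-bh1, 134 for Hba-x and 119 for Hbb-y, against 8.87 for Hba-a1 and 2.02 for Hba-a2. Alas2 had a median of 2.73 RPKM, Klf1 0.810, Gata1 0.710 and Nfe2 0.299. The adult β genes were at a median of 7.14 RPKM for Hbb-bs and 1.79 RPKM for Hbb-bt. Counts of Hbb-bh1 exceeded those of Hba-x in every embryo, by 1.14 to 9.36 times.

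Hbb-bh1, which encodes the first β-like globin of primitive red cells, ran from 4.93 to 2682 CPM. At 6 somites it was at 70.5, 28.3, 76.7 and 44.6 CPM in Smchd1 wt and at 72.5, 64.7, 17.5 and 2682 CPM in Smchd1 matΔ embryos. At 7 somites it was at 25.6, 819, 78.3 and 5.70 CPM in Smchd1 wt and 60.1, 4.93 and 135 CPM in Smchd1 matΔ. A single embryo of each genotype (Smchd1 matΔ replicate 4 at 6 somites, Smchd1 wt replicate 2 at 7 somites) thus stood far above the rest of its stage. At 8 somites the values were 33.0, 466.03 and 1096 CPM in Smchd1 wt and 15.6 and 123 CPM in Smchd1 matΔ. At 9 somites they were 228, 637 and 297 CPM against 372 and 271 CPM. The 5 embryos with 9 somites were the closest to each other of any stage, and the genotypes overlapped. At 10 somites the values were 2319, 752, 56.1 and 411 CPM in Smchd1 wt and 219, 2335 and 346 CPM in Smchd1 matΔ. At 11 somites they were 439, 601 and 299 CPM against 2147 and 868 CPM. Both Smchd1 matΔ embryos at 11 somites were above the Smchd1 wt embryos, but at the other 5 stages the genotypes overlapped.

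Hba-x, the embryonic α-like (ζ) globin gene, followed Hbb-bh1 closely. It ranged from 1.94 to 896 CPM with a median of 126 CPM. The median was 34.7 CPM (range 1.94 to 515) in the 20 embryos with 6 to 8 somites and 195 CPM (27.3 to 896) in the 17 embryos with 9 to 11 somites. In Smchd1 matΔ replicate 4 at 6 somites, the 9.36-fold excess of Hbb-bh1 over Hba-x counts lay outside the range of 1.14 to 3.92 in the other 36 embryos. That library held 57507 Hbb-bh1 counts with Hba-x at 286 CPM and Hbb-y at 69.8 CPM, so the departure was in Hbb-bh1.

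Hbb-y, the εy globin gene that follows Hbb-bh1, showed the clearest dependence on stage. At 6 somites it was at 4.43, 3.53, 21.3 and 8.82 CPM in Smchd1 wt and 5.28, 3.39, 1.10 and 69.8 CPM in Smchd1 matΔ embryos. At 7 somites it was at 3.31, 199.6, 23.4 and 0.823 CPM in Smchd1 wt and 10.3, 1.14 and 21.9 CPM in Smchd1 matΔ. Most embryos at these stages had little Hbb-y, and the same 2 embryos as for Hbb-bh1 were high. At 8 somites the values were 4.52, 75.6 and 157 CPM in Smchd1 wt and 7.26 and 20.3 CPM in Smchd1 matΔ. At 9 somites they were 92.6, 292 and 167 CPM against 134 and 109.5 CPM. From 9 somites on, all embryos but Smchd1 wt replicate 3 at 10 somites were at 88.4 CPM or more. At 10 somites the values were 698, 433, 25.0 and 236 CPM in Smchd1 wt and 88.4, 845 and 128 CPM in Smchd1 matΔ. At 11 somites they were 249, 321 and 146 CPM against 1142 and 448 CPM. The median went from 8.04 CPM at 6 to 8 somites to 236 CPM at 9 to 11 somites, a ratio of 29.3, and none of the 20 younger embryos was above the median of the older ones. For the other 8 genes that ratio of medians was 1.62 to 6.08.

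**Figure D1:**
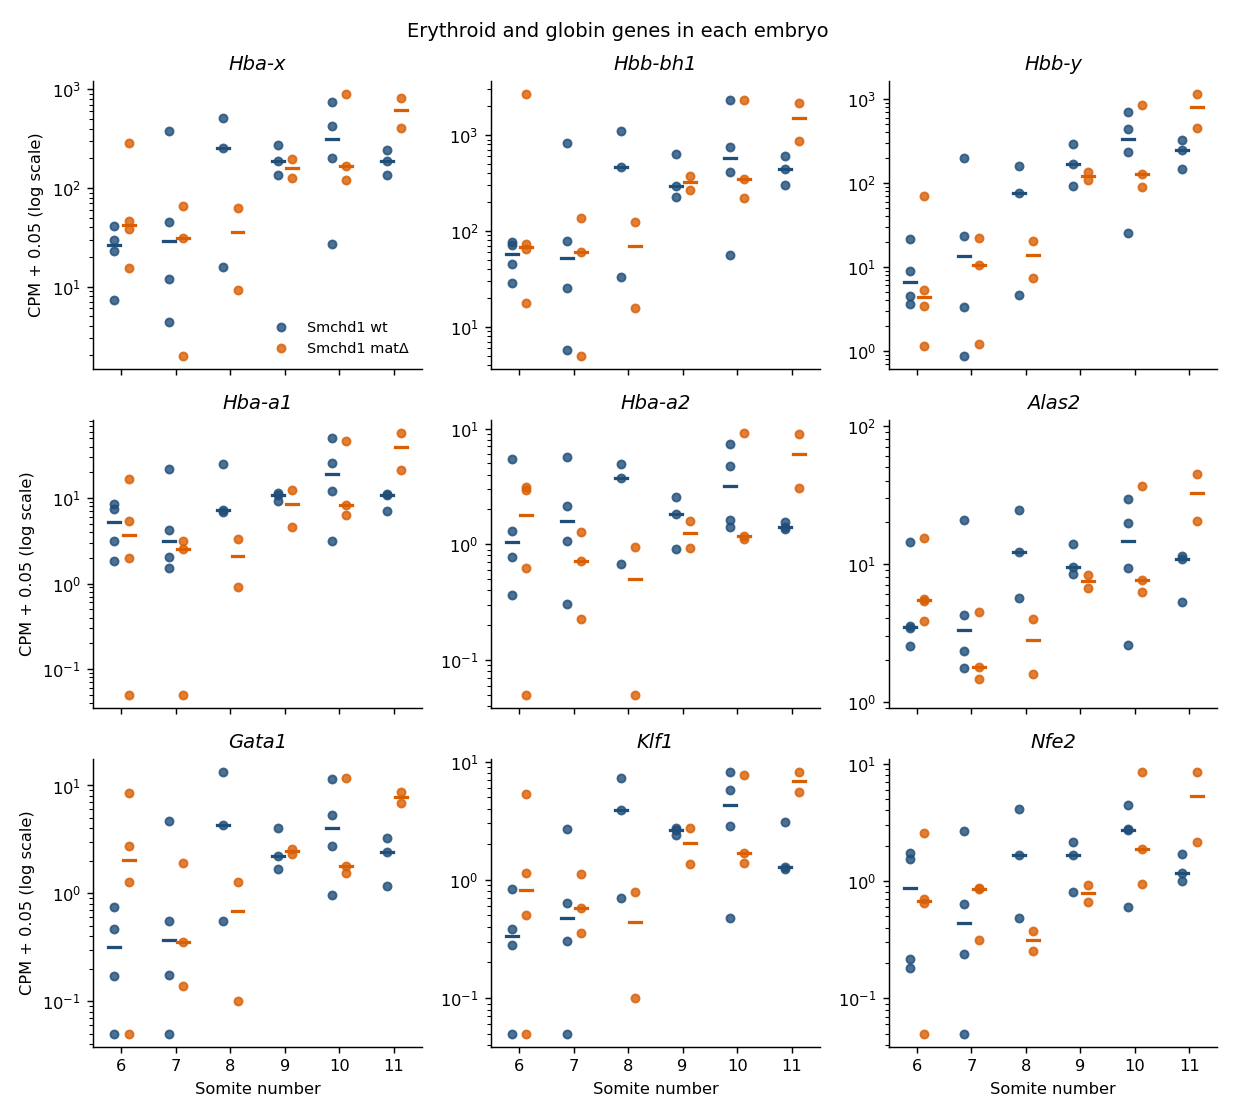
Level of the 9 genes in each embryo, as CPM with 0.05 added on a log axis, against somite number. Each point is 1 embryo and each bar a group median. Hbb-y climbed from a median of 8.04 CPM at 6 to 8 somites to 236 CPM at 9 to 11 somites, and the genotypes overlapped in most groups.

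Hba-a1 and Hba-a2 encode the same adult α-globin chain, and their reads can hardly be told apart. Of the 75-base windows of their reference transcripts, as long as the reads, 32.1% for Hba-a1 and 15.4% for Hba-a2 were unique. The split between them is therefore uncertain. Hba-a1 ran from 0 to 57.5 CPM (median 7.21) and Hba-a2 from 0 to 9.08 CPM (median 1.35). Hba-a1 was at 0 counts in 2 embryos, both Smchd1 matΔ, and Hba-a2 was at 3 counts or fewer in 4 embryos.

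The transcription factor genes were low. Gata1, whose product is the master regulator of red cell genes, ran from 0 to 13.3 CPM (median 1.73), and was at 3 counts or fewer in 8 embryos. Klf1, the activator of erythroid promoters, ran from 0 to 8.10 CPM (median 1.24), and Nfe2 from 0 to 8.42 CPM (median 0.893). A count of 0 in the shallow libraries, such as Smchd1 matΔ replicate 3 at 6 somites, the shallowest of all, shows only that the transcript was not detected at this depth. In the early embryo with the most Hbb-bh1, Smchd1 matΔ replicate 4 at 6 somites, Gata1 was at 8.53 CPM and Klf1 at 5.27 CPM. In Smchd1 wt replicate 3 at 8 somites, the next highest early embryo for Hbb-bh1, they were at 13.3 and 7.15 CPM.

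Alas2 ran from 1.41 to 44.9 CPM with a median of 6.55 CPM. Exons of Apex2, a DNA repair nuclease gene on the opposite strand, overlap those of Alas2 by 372 bases, and the use of strand in counting was not stated. Apex2 was at 20.5 to 49.8 CPM and did not vary with Alas2 (Pearson r = 0.013, permutation p = 0.94, Spearman rho = 0.044, permutation p = 0.793, and r = -0.040 without the 2 embryos farthest from the Alas2 median, over 37 embryos).

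Whether the genes vary together was asked by correlating log2 CPM over the 37 embryos for all 36 pairs. Every pair was positively correlated, with Pearson r of 0.57 to 0.98 (median 0.83), Spearman rho of 0.49 to 0.99, and adjusted permutation p of at most 0.0003 over the 36 pairs. The embryonic globins were closest, at r = 0.98 for Hba-x with Hbb-bh1, 0.94 for Hba-x with Hbb-y and 0.93 for Hbb-bh1 with Hbb-y (rho 0.99, 0.92 and 0.90; adjusted permutation p = 1.2e-05 each for r and rho, the smallest attained). Pairs of Gata1, Klf1 and Nfe2 with the 3 embryonic globins had r of 0.81 to 0.93. Pairs with Hba-a2 were the loosest, and 8 such pairs had a median r of 0.61. Without the 2 embryos farthest from the median of the first gene, r was 0.46 to 0.98 over the 36 pairs. All values of an embryo share its library and scaling.

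The genes also varied together within groups. When each value was taken as its deviation from the mean of its own genotype and stage, r was 0.39 to 0.97 (median 0.77), and 35 of 36 pairs stayed below an adjusted permutation p of 0.05. The exception was Hba-a2 with Nfe2 (r = 0.39, adjusted permutation p = 0.0896). Within groups, the 3 pairs of embryonic globins were all at r = 0.97.

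The adult β genes behaved otherwise. Hbb-bs, an adult β-globin gene, ran from 0.704 to 79.3 CPM (median 5.48), and its neighbour Hbb-bt from 0 to 25.7 CPM (median 1.26). Their reads are also partly shared, with 48.5% and 43.4% of windows unique. Over the 37 embryos, Hbb-bs had r = 0.10 with Hba-x, 0.14 with Hbb-bh1 and 0.031 with Hbb-y (rho 0.15, 0.14 and 0.089, adjusted permutation p over 19 relations 0.938, 0.938 and 0.955, and 0.759, 0.759 and 0.871 for rho). Without the 2 embryos farthest from the Hbb-bs median, these r were 0.20, 0.21 and 0.090. In contrast Hbb-bs was correlated with Hba-a2 (r = 0.68, adjusted permutation p = 9.5e-05, rho = 0.72, adjusted permutation p = 0.00019, and r = 0.65 without the 2 farthest embryos) and with Hba-a1 (r = 0.44, adjusted permutation p = 0.033, rho = 0.43, adjusted permutation p = 0.0366, and r = 0.45 without them). The 2 adult β genes had r = 0.93 with each other. Within groups, r of Hbb-bs was 0.82 with Hba-a2, 0.57 with Hba-a1 and 0.52 with Alas2, with adjusted permutation p of 6.33e-05, 0.00939 and 0.0396. Over all embryos the value for Alas2 was 0.39 (adjusted permutation p = 0.0629).

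**Figure D2:**
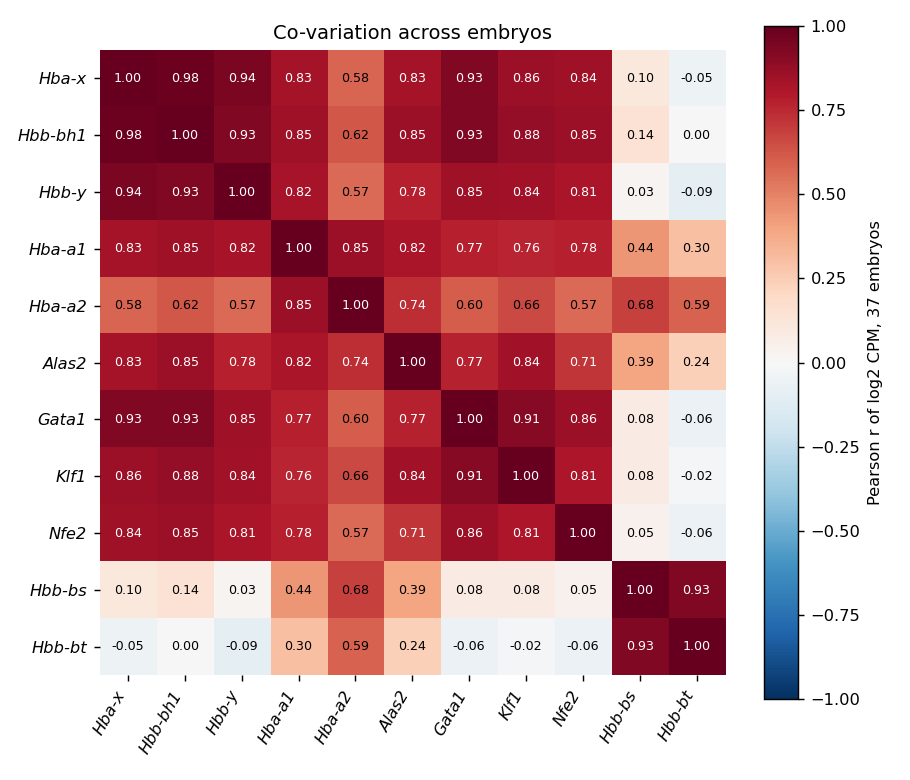
Pearson r of log2 CPM over 37 embryos for each pair of the 9 genes and the adult β genes Hbb-bs and Hbb-bt, as colour and printed value. The 9 genes form a block with r of 0.57 to 0.98, while Hbb-bs and Hbb-bt had r of -0.089 to 0.68 with it, highest with Hba-a2.

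The highest levels of the adult β genes were in a few embryos, most of them young. In Smchd1 wt replicate 2 at 6 somites Hbb-bs was at 79.3 CPM and Hbb-bt at 25.7 CPM, beside 28.3 CPM of Hbb-bh1 and 0 counts of Gata1. The counts of the adult β genes there were 3.29 times those of Hbb-bh1 and Hbb-y, and the adult α genes were 1.77 times Hba-x. Adult β counts also exceeded embryonic β counts in Smchd1 wt replicate 1 at 7 somites (1.08 times) and Smchd1 wt replicate 1 at 8 somites (1.06 times), and in no other embryo. In the 17 embryos with 9 to 11 somites the ratio was 0.00232 to 0.114. The embryos with ratios over 1 had little embryonic globin, at 25.6 to 33.0 CPM of Hbb-bh1.

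A gene chosen after its values were seen was highest in some of the same embryos. S100a8, which encodes a subunit of calprotectin and is abundant in neutrophils, was over 1 CPM in 4 embryos and at 0.415 CPM or less in the other 33. These were the 3 embryos just named (5.75, 1.05 and 1.43 CPM) and Smchd1 matΔ replicate 1 at 6 somites (1.36 CPM), and they had at least 25.1 CPM of Hbb-bs. The median of Hbb-bs in the other 33 embryos was 5.23 CPM. Its highest value among these was 49.98 CPM, in Smchd1 wt replicate 2 at 7 somites. Smchd1 wt replicate 1 at 10 somites had 30.8 CPM of Hbb-bs and no S100a8 count. The S100a8 values rest on 44, 6, 20 and 9 counts in the 4 embryos, in the order given. S100a9, the other calprotectin subunit, had 5 counts in the first of them and 0 in the other 3. The part of S100a8 in the adult globin values was not tested.

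The make-up of the β globins shifted with somite number. The ratio of Hbb-y to Hbb-bh1 counts had a median of 0.156 (range 0.0260 to 0.465) in the 20 embryos with 6 to 8 somites and 0.458 (0.301 to 0.576) in the 17 embryos with 9 to 11 somites. Of the younger embryos 1 reached the range of the older ones, Smchd1 matΔ replicate 1 at 8 somites, with 142 Hbb-y and 306 Hbb-bh1 counts. In Smchd1 wt the log2 ratio rose by 0.42 per somite (r = 0.78, permutation p = 6e-05, adjusted p = 0.00018 over 6 tests, rho = 0.79, permutation p = 7e-05). In Smchd1 matΔ it rose by 0.61 per somite (r = 0.86, permutation p = 3e-05, adjusted p = 0.00018, rho = 0.89, permutation p = 3e-05). Without the 2 embryos farthest from the median stage, r was 0.75 and 0.84. From 6 to 11 somites the mean log2 ratio was -2.79, -2.36, -2.76, -1.09, -1.12 and -0.92 in Smchd1 wt. In Smchd1 matΔ it was -4.18, -2.41, -1.85, -1.39, -1.40 and -0.93. In Smchd1 wt most of the rise thus lay between 8 and 9 somites. Within stages, the log2 ratio in Smchd1 matΔ minus Smchd1 wt was -0.29 (adjusted permutation p = 0.208). The lowest ratio of all embryos, 0.0260, was that of Smchd1 matΔ replicate 4 at 6 somites, the library rich in Hbb-bh1.

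No shift of the α globins towards the adult genes passed the test. The ratio of Hba-a1 plus Hba-a2 to Hba-x counts had a median of 0.0854 at 6 to 8 somites (range 0.0309 to 1.77) and 0.0653 at 9 to 11 somites (0.0375 to 0.162). The log2 ratio had a slope of -0.43 per somite in Smchd1 wt (r = -0.48, permutation p = 0.0272, adjusted p = 0.0544, rho = -0.45, permutation p = 0.0437, and r = -0.44 without the 2 embryos farthest in stage). In Smchd1 matΔ the slope was -0.075 (r = -0.24, permutation p = 0.379, adjusted p = 0.379, rho = -0.23, permutation p = 0.398, and r = -0.28 without 2 embryos). Neither passed the threshold. The highest ratios, 1.77, 0.657, 0.577 and 0.533, were in 4 young Smchd1 wt embryos, 3 of which were those with more adult than embryonic β counts. Within stages Smchd1 matΔ minus Smchd1 wt was -0.76 on the log2 scale (adjusted permutation p = 0.105). Leaving out Smchd1 wt replicate 2 at 6 somites brought this difference to -0.55 and the slope in Smchd1 wt to -0.30.

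**Figure D3:**
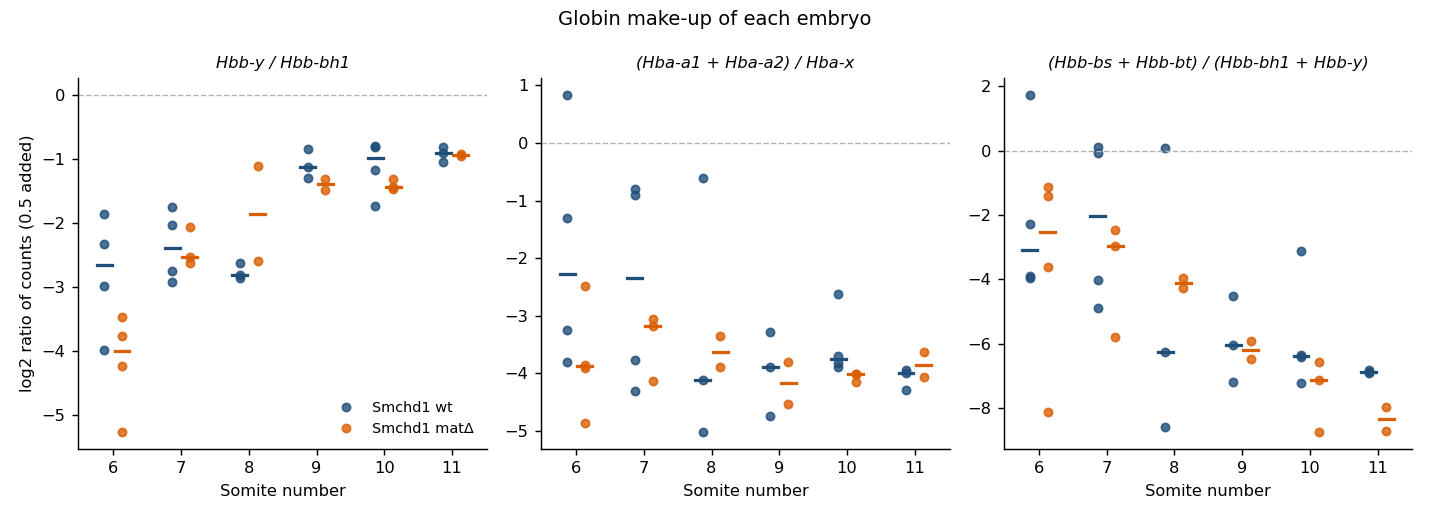
Log2 ratios of globin counts (0.5 added to each sum) in each embryo against somite number. Each point is 1 embryo, each bar a group median and the dashed line equal counts. Hbb-y rose relative to Hbb-bh1 with stage, whereas adult α relative to Hba-x and adult β relative to embryonic β counts (right) were highest in young Smchd1 wt embryos, 3 of which had more adult than embryonic β counts.

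To ask how each gene changed with stage, log2 expression was regressed on somite number in each genotype across all genes with edgeR's quasi-likelihood test. Hbb-y was the 1 of 9 members that rose in Smchd1 wt embryos, where 3.06% of the 14857 genes tested rose. Its level went up 1.95-fold per somite (log2 slope 0.96, SE 0.22, adjusted p = 0.0104). In Smchd1 matΔ embryos it was again the only member to rise, 2.13-fold per somite (log2 slope 1.09, SE 0.19, adjusted p = 0.0015), where 2.48% of 15255 genes rose. The slope of Hbb-y passed the threshold in every alternative that gave a p, with adjusted p of 0.000229 (DESeq2) to 0.0269 in Smchd1 wt and 1.38e-05 to 0.0366 in Smchd1 matΔ, where DESeq2 gave none.

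The other members had positive slopes that did not pass the threshold. In Smchd1 wt they were 0.63 (SE 0.24, adjusted p = 0.123) for Hbb-bh1, 0.57 (SE 0.23, adjusted p = 0.152) for Hba-x and 0.067 to 0.52 for the rest. The median over the 9 members was 0.49 per somite against -0.00087 over all genes. At an unadjusted p below 0.05 were 6 members, and 3065 of all 14857 genes. In Smchd1 matΔ the median was 0.45 against 0.0014 over all genes, and 7 members and 3079 of all 15255 genes were at an unadjusted p below 0.05. Of the members not called there, Alas2 was nearest the threshold (0.45, SE 0.13, adjusted p = 0.0579). Hbb-bh1 had a slope of 0.25 there (SE 0.23, adjusted p = 0.584).

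These counts turned on single embryos. Over all genes, calls in either direction were 856 of 14857 in Smchd1 wt and 639 of 15255 in Smchd1 matΔ. All alternatives, DESeq2 among them, gave 593 to 1943 in Smchd1 wt. In Smchd1 matΔ, leaving out single embryos gave 437 to 907. The whole-table count of each single refit below is not given. Without Smchd1 matΔ replicate 4 at 6 somites, 7 of 9 members rose in Smchd1 matΔ, all but Hba-a2 and Gata1, and the slope of Hbb-bh1 went from 0.25 to 1.05 per somite (adjusted p = 0.00142). Without Smchd1 wt replicate 2 at 7 somites, Hba-x (0.75, adjusted p = 0.0481) and Hbb-bh1 (0.82, adjusted p = 0.0346) also rose in Smchd1 wt, making 3. Without Smchd1 wt replicate 3 at 8 somites Klf1 rose too (0.62), making 2. DESeq2 called 4 members in Smchd1 wt, namely Hbb-y, Hba-x, Hbb-bh1 and Klf1.

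No member passed the threshold for a difference in slope between the genotypes, but the limits were wide. Within 2 SE, the log2 slope in Smchd1 matΔ minus Smchd1 wt was -1.23 to 0.24 for Hbb-bh1 and -0.60 to 0.66 for Hbb-y. In the edgeR fit of the slope difference, 0 of 15978 genes (0%) passed the threshold, and DESeq2 called 0 genes. At an unadjusted p below 0.05 in edgeR were 0 of 9 members and 626 of the 15978 genes. The adult β genes had slopes of the other sign from the members, -0.37 (SE 0.17) for Hbb-bs and -0.44 (SE 0.18) for Hbb-bt per somite in Smchd1 wt, with adjusted p of 0.208 and 0.161. Without Smchd1 wt replicate 2 at 6 somites these slopes were -0.16 and -0.17.

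Other erythroid genes were read from lists chosen with earlier results of these data known. Of all genes tested, 3.06% of 14857 rose in Smchd1 wt and 2.48% of 15255 in Smchd1 matΔ. In Smchd1 wt embryos, 1 of 16 tested erythroid transcription factors and partners rose, Lmo2 (log2 slope 0.14, SE 0.03, adjusted p = 0.00304), and in Smchd1 matΔ 3 of 16 rose, namely Lmo2 (0.16, SE 0.03), Tal1 (0.23, SE 0.05) and Lyl1 (0.30, SE 0.07), with edgeR adjusted p of 0.000917, 0.00987 and 0.0142. Their products sit together in the complexes of blood and endothelial progenitors. Of 25 genes of the red cell membrane and enzymes 0 were called in Smchd1 wt. There 14 were at an unadjusted p below 0.05, as were 3065 of all 14857 genes. In Smchd1 matΔ 6 of 25 rose, led by the anion exchanger Slc4a1 (0.96, SE 0.18, adjusted p = 0.00324), the Rh-associated glycoprotein gene Rhag (1.05, SE 0.22, adjusted p = 0.00734) and the blood group gene Ermap (0.69, SE 0.16, adjusted p = 0.0152). The median slope of this list was 0.26 in Smchd1 wt and 0.30 in Smchd1 matΔ. Of 16 genes of haem synthesis and iron uptake 0 rose in Smchd1 wt (1 at an unadjusted p below 0.05) and 1 in Smchd1 matΔ, the mitochondrial iron importer Slc25a37 (0.24, SE 0.06, adjusted p = 0.0243).

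Some of these calls depended on the embryos fitted. In Smchd1 wt, Slc4a1 passed with DESeq2 (0.75, adjusted p = 0.0495), with sex as a covariate (0.77, adjusted p = 0.0455), in females alone (0.84, adjusted p = 0.0318) and without Smchd1 wt replicate 2 at 7 somites (0.97, adjusted p = 0.0127). In female Smchd1 matΔ embryos alone, the slopes of Slc4a1, Rhag, Ermap, Tal1, Lyl1, Lmo2 and Slc25a37 no longer passed. With sex as a covariate, Ermap (adjusted p = 0.0768) and Slc25a37 (adjusted p = 0.0901) were lost in Smchd1 matΔ. Without the 2 libraries highest in ribosomal RNA, Tal1 (adjusted p = 0.0628), Ermap (adjusted p = 0.0529) and Slc25a37 (adjusted p = 0.143) were lost there. Leaving out single embryos also lost Slc25a37 in 3 fits and Ermap in 1 in Smchd1 matΔ. In Smchd1 wt, DESeq2 also called Tal1 (adjusted p = 0.00949) and Lyl1 (adjusted p = 0.011), the fit with sex called Tal1 (adjusted p = 0.0481), and females alone gave Rhag (adjusted p = 0.0293). No gene of these lists was called for a difference in slope between the genotypes.

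Of 12 endothelial genes tested, 5 rose with stage in Smchd1 wt and 6 in Smchd1 matΔ, where 3.06% and 2.48% of all genes rose, with Emcn, encoding the vessel sialomucin endomucin, at 0.71 (SE 0.10, adjusted p = 8.67e-05) and 0.72 (SE 0.12, adjusted p = 0.00109) per somite. Cdh5 (VE-cadherin) and the receptor gene Tie1 were called in both genotypes. The summed level of the 12 endothelial genes was 241 to 436 CPM at 6 to 8 somites and 248 to 528 CPM at 9 to 11 somites. Of the tailbud markers, Cyp26a1 rose (0.21 in Smchd1 wt, 0.30 in Smchd1 matΔ, adjusted p = 0.00253 and 8.76e-05), and Nkx1-2 had slopes of -0.11 and -0.15 (adjusted p = 0.048 and 0.0142). The call of Nkx1-2 in Smchd1 wt was lost in 19 of 28 alternatives, and in Smchd1 matΔ in females alone (adjusted p = 0.144) and without the 2 libraries highest in ribosomal RNA (adjusted p = 0.0692). That of Tie1 in Smchd1 wt was lost in females alone (adjusted p = 0.0548) and in 2 fits that left out a single embryo (adjusted p up to 0.0595). That of Cdh5 in Smchd1 matΔ was lost without those 2 libraries (adjusted p = 0.056).

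Markers of other cell types were set against Hbb-bh1 over the 37 embryos, as log2 of their summed CPM plus 1, for 10 lists. The sums for red cell genes (r = 0.84, rho = 0.88), haem synthesis (r = 0.82, rho = 0.88) and erythroid transcription factors (r = 0.64, rho = 0.64) were correlated with it, with adjusted permutation p of 5e-05, 5e-05 and 0.0001 for r and 5e-05, 5e-05 and 0.000133 for rho. Without the 2 embryos farthest from the Hbb-bh1 median these r were 0.84, 0.86 and 0.66. The sum for endothelial genes had r = 0.27 (rho = 0.25, adjusted permutation p = 0.185 and 0.268, and r = 0.41 without the 2 farthest). Visceral endoderm genes summed to 14.3 to 4801 CPM (r = -0.27, rho = -0.20, adjusted permutation p = 0.185 and 0.298), and macrophage genes to 7.51 to 30.7 CPM (r = -0.36, rho = -0.34, adjusted permutation p = 0.0657 and 0.0975). For visceral endoderm and macrophages r was -0.24 and -0.44 without the 2 farthest embryos. The heart list stayed at 1.10 to 8.15 CPM. The other lists, namely megakaryocyte, allantois, heart and tailbud, had adjusted permutation p of 0.218 to 0.34 for r and 0.268 to 0.581 for rho.

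Genes whose pattern was most like that of the members included several red cell genes. Likeness was Pearson r over 37 embryos with the mean of the members' standardised log2 CPM. Among the highest were Trim10 (0.94), Hemgn (0.94), Ermap (0.93), Add2 (0.92), Slc4a1 (0.91), Csf2rb (0.91), Olfr67 (0.90) and Epb42 (0.90). Add2 and Epb42 encode parts of the red cell membrane skeleton, and Slc4a1 the anion exchanger of the membrane. Slc4a1 reached 84.5 CPM, and each of these 8 genes was at 0 in at least 1 embryo. Olfr67, an olfactory receptor gene that lies beside the β-globin cluster on chromosome 7, reached 1.96 CPM with a median of 0.214 CPM.

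Maternal loss of SMCHD1 was the comparison the study was designed for. None of the 9 members differed between Smchd1 matΔ and Smchd1 wt embryos over all stages, with stage and sex in the edgeR model. Of 15978 genes tested 0.0125% were called. At an unadjusted p below 0.05 were 0 members and 906 of the 15978 genes. The log2 fold changes were 0.40 (SE 0.75) for Hbb-bh1, 0.13 (SE 0.57) for Hba-x, -0.18 (SE 0.56) for Hbb-y, -0.15 (SE 0.43) for Hba-a1 and -0.27 (SE 0.44) for Hba-a2. They were 0.56 (SE 0.56) for Gata1, 0.36 (SE 0.49) for Klf1, 0.13 (SE 0.44) for Nfe2 and -0.087 (SE 0.38) for Alas2. The smallest adjusted p among members was 0.917, and the median was 0.13 against -0.0023 over all genes. The spread between embryos leaves wide limits, and within 2 SE the fold change of Hbb-bh1 ran from -1.09 to 1.89 on the log2 scale. Without Smchd1 matΔ replicate 4 at 6 somites the value for Hbb-bh1 was -0.32. The signs of Hba-x, Hba-a1, Hbb-bh1, Hbb-y, Alas2 and Nfe2 depended on which embryos were fitted.

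No member passed the threshold in either stage window, but the limits were wide. Within 2 SE the log2 fold change of Hbb-bh1 was -2.92 to 3.61 at 6 to 8 somites and -0.80 to 1.36 at 9 to 11 somites. At 6 to 8 somites, where 0.00639% of 15652 genes were called, log2 fold changes of the members were -1.04 to 0.51 and the smallest adjusted p was 0.743. At 9 to 11 somites, where 0.00635% of 15757 genes were called, all 9 were above 0, at 0.15 to 0.45, and the smallest adjusted p was 0.9998. In both windows edgeR and DESeq2 called 0 members, and 0 were at an unadjusted p below 0.05. Over all genes, 1216 of 15652 were below it in the earlier and 296 of 15757 in the later window. Visceral endoderm markers had median log2 fold changes of -0.58 in the earlier and 1.33 in the later window, with 0 of 10 called in each.

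Of the other lists, none had a gene called for genotype over all stages. Among 25 red cell genes 18 had positive and 7 negative log2 fold changes, with a median of 0.065. Among 17 erythroid transcription factors and partners the median was 0.020, and among 16 genes of haem synthesis 0.060. The adult β genes had log2 fold changes of -1.21 for Hbb-bs (SE 0.43) and -1.41 for Hbb-bt (SE 0.46), both at an unadjusted p below 0.05, with edgeR adjusted p = 0.867. Without Smchd1 wt replicate 2 at 6 somites, the adult β values were -0.86 and -0.94. Hbb-bs was at 1.35 to 79.3 CPM (median 6.04) in Smchd1 wt and at 0.704 to 31.5 CPM (median 4.75) in Smchd1 matΔ, so the groups overlapped.

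No member passed the test for sex. Male minus female log2 fold changes were all positive, 0.25 to 1.04 with a median of 0.79, but 0 of 9 passed the threshold in edgeR, where 0.219% of 15978 genes did. Of the members 1 was at an unadjusted p below 0.05, Hba-a2 (1.04, SE 0.49, edgeR adjusted p = 1). Over all genes, 528 of 15978 were at an unadjusted p below 0.05 in edgeR. DESeq2 called 0 members. These values turned on single embryos. Without Smchd1 wt replicate 2 at 7 somites, that of Hba-x went from 0.79 to 0.35, that of Hbb-bh1 from 1.004 to 0.47 and that of Hbb-y from 0.87 to 0.45. Without Smchd1 matΔ replicate 1 at 11 somites, that of Nfe2 went from 0.62 to 0.23, and without Smchd1 wt replicate 1 at 10 somites that of Gata1 went from 0.25 to -0.0098.

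**Figure D4:**
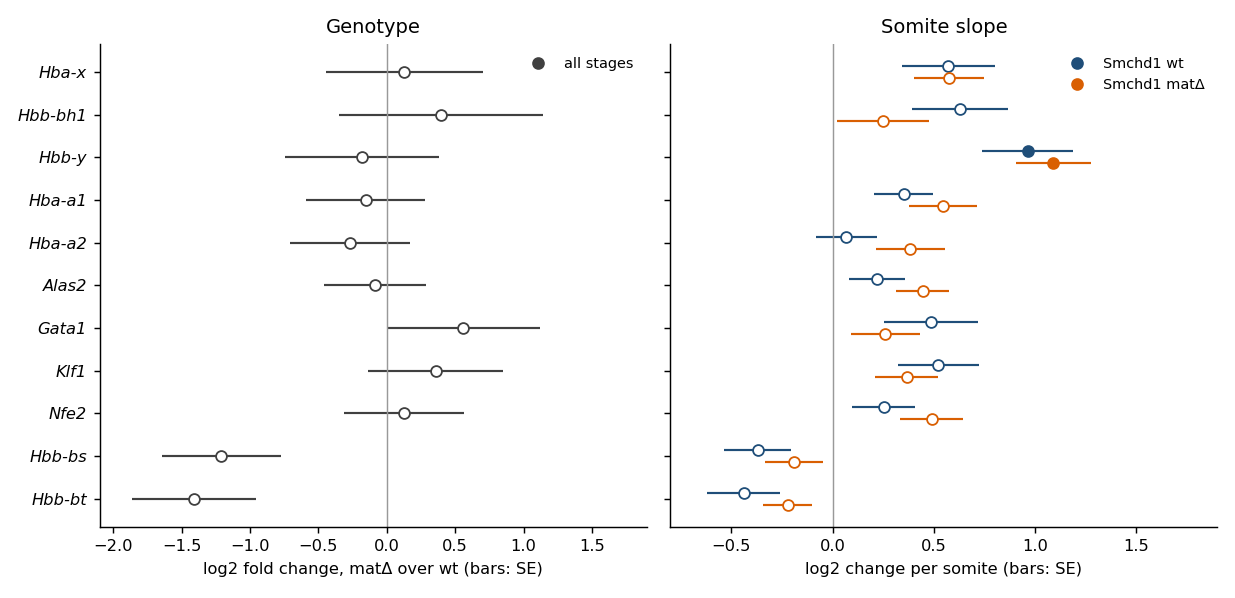
EdgeR estimates for the 9 genes and Hbb-bs and Hbb-bt, with SE as bars, as log2 fold change of Smchd1 matΔ over Smchd1 wt (left) and log2 change per somite in each genotype (right). Filled points passed an adjusted p of 0.05, which held for Hbb-y in the 2 slope fits (0.96 and 1.09) and for none of the genotype values.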

How the data were processed

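RNA-seq was analysed in tailbud tissue of 37 embryos. As the labels and methods describe, the authors prepared poly(A) libraries with either the stranded or the unstranded TruSeq mRNA kit (which library had which kit is not stated), sequenced 75-base single-end reads, trimmed them with Trim Galore 0.4.4, mapped them with HISAT2 2.0.5 to GRCm38.p6 and quantified them in SeqMonk. The deposited values used here are raw counts per gene, not normalised. How reads mapping to several genes were counted is not given in the sources used here. Deposited log2 RPKM values of Hox genes and the authors' own list of called genes (p-values and fold changes) were not used.

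Of 35591 rows, 49 with a repeated identifier were dropped. Groups came from the labels. Genes were tested on counts with edgeR 4.0.16 in R 4.3.3 (filterByExpr, minimum count 10, TMM, quasi-likelihood test, Benjamini-Hochberg, threshold 0.05, two-sided). All-stage and window fits of genotype had somite number as a factor and sex, and slope fits within a genotype had somite number alone. SE was the log2 fold change divided by the root of F. All 9 members passed the filter in every fit. The pipeline was run on simulated counts whose spread between libraries was fixed and smaller than that of the members. That run therefore does not show how well changes in the members would be found. Log2 CPM used a prior count of 2. Ratios of counts had 0.5 added to each side, and were tested by 100000 permutations, with the 6 tests of the Hbb-y and α ratios adjusted together. Genotype differences in ratios were permuted within stages. Correlations used 100000 two-sided permutations.

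Genes named beyond the members were, for each list, up to 3 called genes with the smallest adjusted p per comparison, and the 10 genes most like the members, of which 2 are not reported here. S100a8, Apex2 and the ratios of Hbb-bh1 to Hba-x and of adult to embryonic β counts were chosen after values were seen, and S100a8 and these ratios were not tested. The members and lists were chosen with earlier results of these data known. Each library was counted as 1 replicate. Pairs within groups differed beyond sampling noise (chi-square per degree of freedom 5.12 to 72.3), which shows only that they were different libraries. The labels give no litter or mother, so embryos that shared a litter could not be told apart or modelled. The SE values and the limits of 2 SE came from the edgeR fits and include the spread between embryos. Reads carry no molecular identifiers. Alternatives were DESeq2 1.42.0, other size factors, no filter, sex handling, female embryos alone, leaving out embryos and replicate numbers as a block.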

Additional observations from a re-analysis of the deposited data

Results flagged for a closer look

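In Smchd1 wt embryos with 10 somites, the log2 ratio of Hba-a1 plus Hba-a2 to Hba-x counts was -2.62 in replicate 3 and -3.89 to -3.70 in the other 3 embryos, a gap larger than expected of 4 values by Dixon's test (0.846 of the range, critical value 0.829). The same embryo had the lowest Hba-x (27.3 CPM) and Hbb-bh1 (56.1 CPM) of the 17 embryos with 9 to 11 somites. It was 1 of 44 sets of 4 embryos examined over the 9 genes and 2 ratios, and chance alone flags about 1 in 20.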

How the results depend on the processing

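No member passed the threshold for genotype (all stages or either window), for the slope difference or for sex under any alternative run. In Smchd1 wt the number of members rising with stage, 1 as reported, was 4 with DESeq2 and 1 to 3 when single embryos were left out. In Smchd1 matΔ, also 1 as reported, it was 0 with DESeq2, which gave 6 members no p, and 1 to 7 when single embryos were left out. It was 7 without both embryos whose globin make-up stood apart, an alternative chosen after seeing the data. Over all genes, calls in either direction ranged across all alternatives from 593 to 1943 in Smchd1 wt and from 175 to 1498 in Smchd1 matΔ. Same-numbered embryos of the 2 genotypes were correlated above 0.1 in 4 of 16 pairs (range -0.286 to 0.582), and were not treated as pairs. Both pairs at 9 somites were among the 4 (r = 0.582 and 0.342), so the check does not settle pairing at each stage. With replicate number as a block, members rising were 1 in Smchd1 wt and 7 in Smchd1 matΔ, where replicate 4 is the lone embryo of its number, and 0 for genotype, slope difference and sex.

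Log2 fold changes for genotype that were not called turned sign as follows. The block gave 0.14 for Hbb-y. Female embryos alone gave 0.014 for Hbb-y and -0.35 for Nfe2. Without both embryos that stood apart, values were -0.30 for Hba-x, -0.37 for Hbb-bh1 and -0.10 for Nfe2. Leaving out single embryos gave -0.23 to 0.56 for Hba-x, -0.42 to 0.035 for Hba-a1, -0.32 to 0.96 for Hbb-bh1, -0.65 to 0.23 for Hbb-y, -0.28 to 0.094 for Alas2 and -0.12 to 0.29 for Nfe2. For sex, Gata1 was at -0.0098 to 0.83. Of the slopes, that of Hba-a2 in Smchd1 wt was -0.019 to 0.20, that of Hbb-bh1 was -0.071 in female Smchd1 matΔ embryos, and that of Hbb-bs in Smchd1 matΔ was 0.046 without both libraries with high ribosomal RNA and -0.38 to 0.053 when single embryos were left out.

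With 5 counts added in the α ratio, its slope was -0.44 in Smchd1 wt and -0.24 in Smchd1 matΔ (adjusted permutation p = 0.0331 for both). Leaving out single embryos it was -0.50 to -0.30 in Smchd1 wt, past the threshold in 7 cases, and -0.14 to -0.015 in Smchd1 matΔ. The genotype difference in the Hbb-y ratio was -0.42 to -0.19, past it without Smchd1 matΔ replicate 1 at 8 somites (adjusted permutation p = 0.044). Genes called over the whole table changed by over 1.5 times for genotype (2 to 1 with the block or females alone), at 6 to 8 somites (1 to 37 with DESeq2, 39 without a filter and 0 with the block), and for the slope in Smchd1 wt (856 to 1802 in females, and 593 to 1943 leaving out single embryos) and in Smchd1 matΔ (639 to 1498 with DESeq2, 175 in females and 372 without both libraries with high ribosomal RNA). They also changed for the slope difference (0 to 39 without a filter), at 9 to 11 somites (1 to 0 with the block or females) and for sex (35 to 15 with the block). The causes were not tested. Low counts limit Gata1, Klf1, Nfe2 and Hba-a2, which were at 3 counts or fewer in 4 to 8 embryos each.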
